A study of Mus musculus with 6 samples.

Results

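The 37 genes described here carry out DNA replication and cell division, and were taken from the count table of the whole lung by their gene symbols. They make up 37 of the 47069 genes counted, and each of the 37 was among the 17037 genes with enough counts to be tested. By the known role of the proteins, 16 genes act in S phase, when DNA is copied, and 21 act in mitosis or in the preparation for it. The lungs came from adult mice at ZT10, that is, 10 h after lights on (zeitgeber time, ZT). One group was 3 wild-type C57BL/6J mice (WT4, WT5 and WT6). The other was 3 Zpbp2-/- mice (KO4, KO5 and KO6), in which a deletion removed the first exons of Zpbp2, a gene of the 17q12-q21 asthma region in human, on a C57BL/6J background. The deletion is not limited to a cell type, and the WT mice were born in the same colony. The comparison asked whether the lungs of KO mice differed from those of WT mice in the RNA of these genes, S phase being set beside mitosis. RNA came from whole lung, in which fewer or more dividing cells and less or more of this RNA per cell cannot be told apart.

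A cell that leaves G1 frees the transcription factor E2F1 from the retinoblastoma proteins, and E2F1 with cyclin E drives the genes of replication. Before S phase CDC6 and CDT1 load the ring of MCM2 to MCM7 onto replication origins, where it becomes the helicase with CDC45. Later in the cycle the B-MYB and FOXM1 transcription factors, with the MuvB core of the DREAM complex, turn on the genes of mitosis through a promoter element called the CHR (cell cycle genes homology region). MuvB with RB-like proteins silences the same genes in resting cells. Most cells of the adult lung rest, and a small fraction of epithelial, endothelial, stromal and immune cells divides. Which cells gave the transcripts of these genes was not measured.

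The depth of the libraries was 19981428 to 46796908 counts on genes, with KO5 the deepest, and 3 counts corresponded to 0.0629 to 0.148 counts-per-million (CPM). Counts of Zpbp2 itself were 1 in WT4, 2 in WT5, 2 in WT6 and 0 in each KO mouse, too few to measure its loss. Lung identity was seen in each library, with 11579 CPM or more of the alveolar type 2 gene Sftpc in WT mice and 9327 or more in KO mice, and with the type 1 gene Ager, the airway gene Scgb1a1 and the endothelial gene Pecam1 all abundant. Xist, expressed from the inactive X, had 15033 or more counts in each library, while the Y-linked Ddx3y had 0 in 5 libraries and 9 in KO5 (0.189 CPM). By these genes the mice of both groups were female. Some libraries stood apart on other genes. The 10 B cell markers summed to 1100 CPM in KO5 against 256 and 311 in KO4 and KO6, and the 10 immediate early genes were highest in WT6 among the WT mice in 10 of 10 cases. Medians over S phase and mitosis genes without KO5 and without WT6 are therefore given, and for some single genes the values with a mouse left out.

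Promoter sequences of 6 members are shown because S phase and mitosis genes differ in the short elements they carry. Each is the run of 250 bases before the RefSeq transcription start in GRCm38.p6, written 5′ to 3′ on the strand of the gene. The first set holds S phase genes, Mcm5 and Mcm6 of the MCM ring and Rrm1 of ribonucleotide reductase, with matches to an E2F site in capitals.
Mcm5, chr8:75109259-75109508, plus strand: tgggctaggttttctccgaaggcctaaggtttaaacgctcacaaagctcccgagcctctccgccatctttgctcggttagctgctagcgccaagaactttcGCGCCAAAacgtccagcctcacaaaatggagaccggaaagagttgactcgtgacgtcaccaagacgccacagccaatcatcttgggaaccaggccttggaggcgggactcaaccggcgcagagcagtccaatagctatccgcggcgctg
Mcm6, chr1:128359706-128359955, minus strand: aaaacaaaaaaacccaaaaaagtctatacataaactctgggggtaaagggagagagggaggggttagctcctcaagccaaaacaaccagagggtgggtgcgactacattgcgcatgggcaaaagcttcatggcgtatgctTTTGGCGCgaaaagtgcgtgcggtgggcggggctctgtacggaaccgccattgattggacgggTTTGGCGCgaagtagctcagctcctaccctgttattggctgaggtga
Rrm1, chr7:102441445-102441694, plus strand: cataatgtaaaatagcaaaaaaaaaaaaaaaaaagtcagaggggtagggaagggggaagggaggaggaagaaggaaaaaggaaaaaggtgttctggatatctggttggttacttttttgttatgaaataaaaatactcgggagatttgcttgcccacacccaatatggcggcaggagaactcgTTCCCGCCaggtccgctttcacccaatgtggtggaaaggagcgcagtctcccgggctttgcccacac
The second set holds mitosis genes, the proliferation marker Mki67, the topoisomerase gene Top2a and the spindle motor gene Kif11, with matches to the CHR in capitals.
Mki67, chr7:135716380-135716629, minus strand: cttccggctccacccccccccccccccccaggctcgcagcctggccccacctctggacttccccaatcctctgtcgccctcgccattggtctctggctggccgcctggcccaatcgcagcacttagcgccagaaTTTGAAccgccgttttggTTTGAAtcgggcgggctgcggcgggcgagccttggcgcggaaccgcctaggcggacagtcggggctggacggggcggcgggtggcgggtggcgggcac
Top2a, chr11:99024190-99024439, minus strand: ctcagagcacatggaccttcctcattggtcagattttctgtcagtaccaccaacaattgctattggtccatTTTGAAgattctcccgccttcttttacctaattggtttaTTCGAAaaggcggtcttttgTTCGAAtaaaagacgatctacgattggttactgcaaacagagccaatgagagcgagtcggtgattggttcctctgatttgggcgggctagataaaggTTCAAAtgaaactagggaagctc
Kif11, chr19:37376132-37376381, plus strand: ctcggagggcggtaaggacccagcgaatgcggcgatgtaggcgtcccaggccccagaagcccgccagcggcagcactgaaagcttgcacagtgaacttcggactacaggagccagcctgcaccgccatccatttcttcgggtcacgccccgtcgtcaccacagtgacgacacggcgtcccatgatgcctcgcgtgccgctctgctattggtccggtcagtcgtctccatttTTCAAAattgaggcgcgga

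The E2F site was searched as TTTCCCGC, TTTGGCGC, TTCCCGCC and GGCGGGAA, of which TTCCCGCC and GGCGGGAA are the same letters read on opposite strands. The CHR was searched as TTTGAA and TTCGAA, and the CCAAT box as CCAAT, all on both strands of the window from 250 bases before to 50 after each start. E2F matches may overlap each other, since TTTCCCGC and TTCCCGCC share letters. The RefSeq table held 15 windows for 14 S phase genes, Mcm7 having a pair of starts, and 17 windows for 17 mitosis genes. Entries were not found for Ccne2, Mcm4, Foxm1, Ccna2, Aurkb and Tpx2. An E2F match lay in 7 of the 15 S phase windows (46.7%), those of Cdc6, Cdt1, Mcm3, Mcm5, Mcm6, Mcm7 and Rrm1, and in 0 of the 17 mitosis windows, against 3.21% of all 32851 windows. A CHR match lay in 13 of the 17 mitosis windows (76.5%) and in 3 of the S phase windows (20%), against 19.2% of all windows. Top2a held 4 CHR matches, and Ccnb1, Birc5, Cenpe and Nusap1 were the mitosis genes with none. The CCAAT box was found in 15 mitosis windows (88.2%) and 10 S phase windows (66.7%), against 37.4% of all windows. A match describes the letters and is not a measured binding site.

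**Figure D1:**
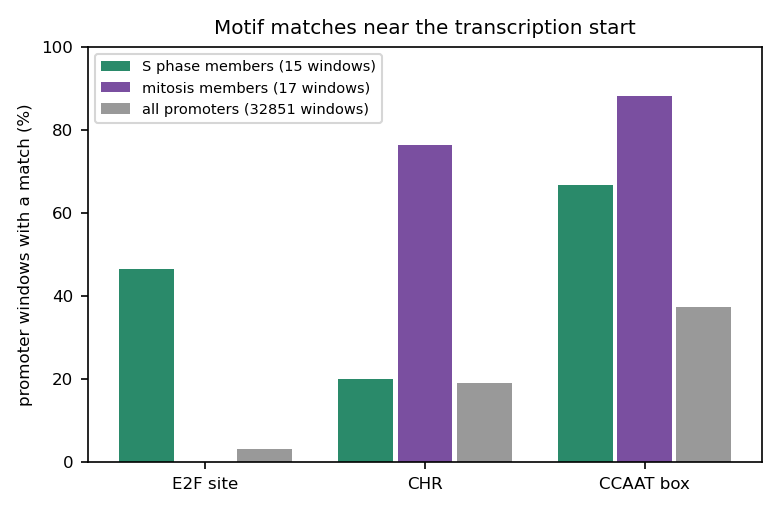
The share of promoter windows (vertical axis, percent, starting at 0) that hold at least 1 match to the E2F site, the CHR or the CCAAT box, for S phase members, mitosis members and all promoters of the table. E2F matches were found in 46.7% of S phase windows and in none of the mitosis windows, and CHR matches in 76.5% of mitosis windows.

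Of the 37 genes, 34 had a higher fitted level in KO mice, against 50.6% of all genes tested, and E2f1, Pcna and Tyms were the 3 with a log2 fold change below 0. Only Mcm5, a subunit of the replicative helicase, rose in KO mice at an adjusted p-value of at most 0.05, and no member fell by this test, by edgeR's exact test or by DESeq2. Over all genes 3.72% were called higher and 2.67% lower by the same rule, 6.39% in either direction. The rule and each edgeR adjusted p below rest on the quasi-likelihood test of edgeR, adjusted over all 17037 genes by Benjamini-Hochberg. At an unadjusted p below 0.05, 13 members were higher, 6 of S phase and 7 of mitosis, and 0 were lower, where 13.9% of all genes were higher and 11.6% lower. No member passed the study's rule of an absolute log2 fold change of at least 1.5 with an adjusted p of at most 0.05, which 0.64% of all genes passed. In 9 members all 3 KO values lay above all 3 WT values, which held for 17.0% of all genes, and in none did they all lie below, which held for 15.6%. DESeq2 called 4 members higher (Mcm5, Mki67, Top2a and Bub1b), against 6.51% of genes, and edgeR's exact test called 2 (Mcm5 and Top2a), against 5.53%. Without a filter on low counts the same 2 were called, against 2.96%. The 9 members without overlap were Cdc6, Mcm5, Mcm6 and Mcm7 of S phase and Foxm1, Ccnb1, Top2a, Bub1b and Tpx2 of mitosis. For each of them the two-sided exact permutation test gave p = 0.1, the smallest that 3 mice against 3 allow.

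**Figure D2:**
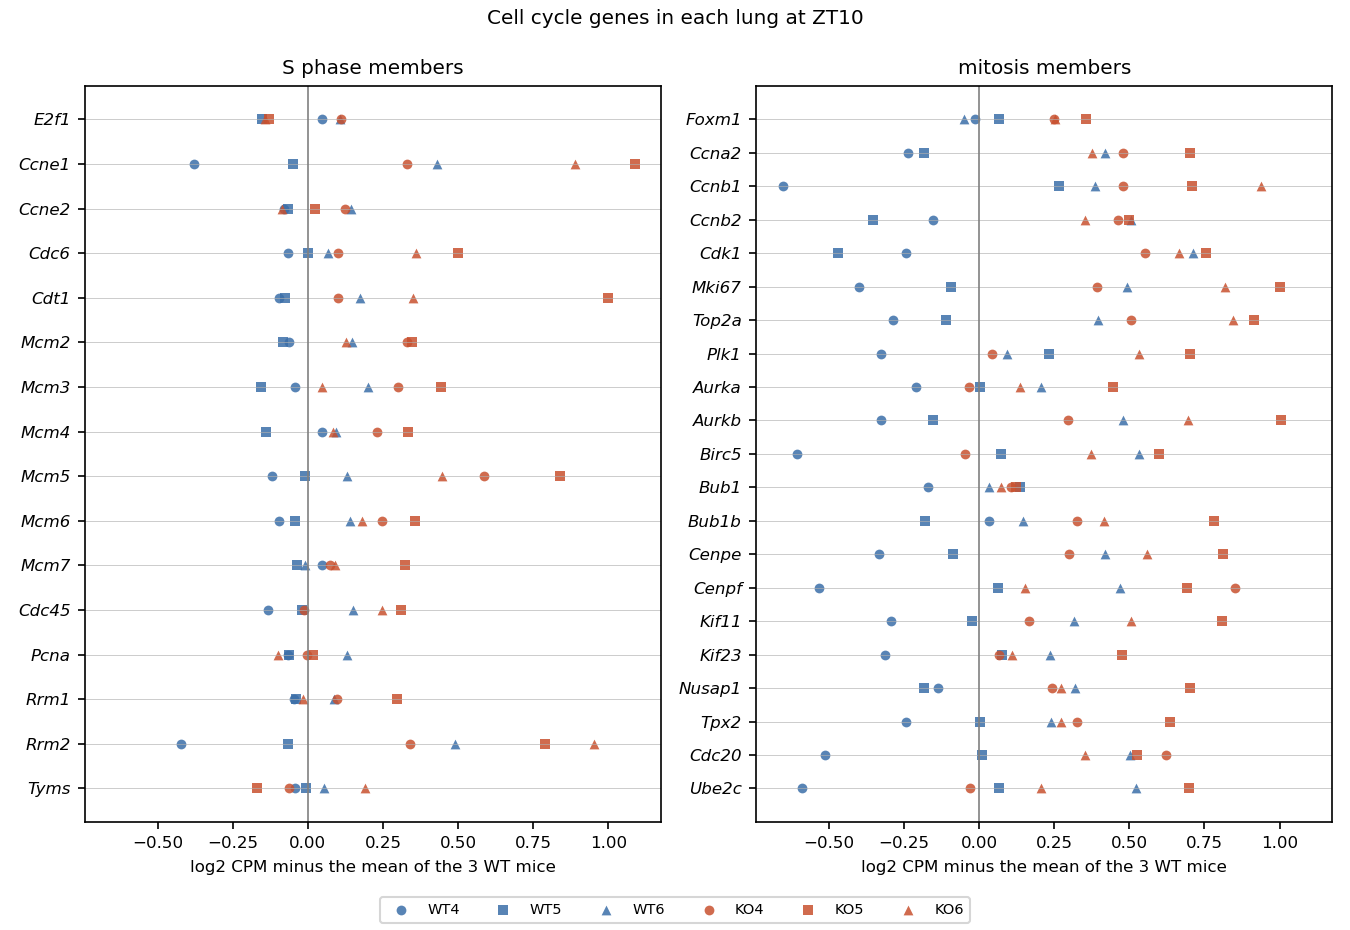
Each row is a member and each point a mouse, placed by its log2 CPM minus the mean of the 3 WT mice (horizontal axis), with S phase members in the left panel and mitosis members in the right. WT points spread more widely in the mitosis panel, where WT6 was the highest WT mouse in 18 of 21 genes, and KO5 was the highest KO mouse in 30 of the 37 genes of both panels.

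Of the S phase members, the genes of entry into the phase gave estimates from -0.06 to 0.79, none of them called. E2f1, which encodes the E2F1 activator, measured 11.7, 10.2 and 12.2 CPM in WT4, WT5 and WT6 and 12.3, 10.4 and 10.3 CPM in KO4, KO5 and KO6. The groups lay within each other, with a log2 fold change of -0.06 (SE 0.117, edgeR adjusted p = 0.808). Ccne1, encoding cyclin E1, the partner of CDK2 at the start of replication, measured 1.17, 1.49 and 2.10 CPM in WT4, WT5 and WT6 and 1.96, 3.36 and 2.91 CPM in KO4, KO5 and KO6. It had the highest fold change of the 37 genes, a log2 fold change of 0.79 (SE 0.287, edgeR adjusted p = 0.144), but WT6 lay above KO4 and the call was not made. Its relative Ccne2, encoding cyclin E2, measured 3.18, 3.21 and 3.72 CPM in WT4, WT5 and WT6 and 3.67, 3.42 and 3.16 CPM in KO4, KO5 and KO6. The mice of both groups were interleaved, and the log2 fold change was 0.02 (SE 0.144, edgeR adjusted p = 0.962). The cyclins E, which share a kinase, thus differed in their estimates, 0.79 against 0.02. Exons of Ccne2 overlap those of Ints8 on the opposite strand over 17.4% of their length, and the strand setting of the counting is not given in the sources used here.

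Among the genes of origin licensing and the helicase, Mcm5 rose and the other 8 had estimates above 0 without a call. In 4 of the 9 genes all KO values lay above all WT values, against 17.0% of all genes, and WT6 exceeded KO4 in 2 genes and KO6 in 3. Mcm5 (ENSMUSG00000005410, chr8:75109569-75128439, plus strand, with an E2F match in the promoter shown above) measured 12.1, 13.0 and 14.4 CPM in WT4, WT5 and WT6 and 19.7, 23.6 and 17.9 CPM in KO4, KO5 and KO6. The lowest KO value, in KO6, was above the highest WT value, in WT6, and the log2 fold change was 0.64 (SE 0.123, edgeR adjusted p = 0.0335), a fold of 1.55. The call held without KO4 (adjusted p = 0.0478) and without KO5 (0.0446), and was lost without WT4 (0.103), WT5 (0.142), WT6 (0.0813) or KO6 (0.0633), while the log2 fold change stayed between 0.51 and 0.72 in these edgeR fits. The share of all genes called higher was then 4.55% and 3.49% without KO4 and KO5, and 0.841%, 0%, 0.146% and 0.425% without WT4, WT5, WT6 and KO6. Mcm6 measured 32.8, 34.1 and 38.7 CPM in WT4, WT5 and WT6 and 41.6, 44.96 and 39.8 CPM in KO4, KO5 and KO6. Its groups did not overlap either, yet the distance between WT6 and KO6 was small, and the log2 fold change was 0.26 (SE 0.0808, edgeR adjusted p = 0.102). Mcm7 measured 27.5, 25.9 and 26.4 CPM in WT4, WT5 and WT6 and 28.0, 33.3 and 28.3 CPM in KO4, KO5 and KO6, a difference carried mainly by KO5, with a log2 fold change of 0.17 (SE 0.0826, edgeR adjusted p = 0.247).

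The other members of the ring overlapped between groups. Mcm2 measured 17.2, 17.0 and 19.9 CPM in WT4, WT5 and WT6 and 22.6, 22.8 and 19.6 CPM in KO4, KO5 and KO6, WT6 lying just above KO6, with a log2 fold change of 0.27 (SE 0.0971, edgeR adjusted p = 0.145). Mcm3 measured 22.4, 20.7 and 26.6 CPM in WT4, WT5 and WT6 and 28.5, 31.4 and 23.8 CPM in KO4, KO5 and KO6. In Mcm4 the values were 36.1, 31.7 and 37.3 CPM in WT4, WT5 and WT6 and 41.0, 44.0 and 37.03 CPM in KO4, KO5 and KO6. WT6 was above KO6 in both, and the log2 fold changes of Mcm3 and Mcm4 were 0.27 (SE 0.129) and 0.22 (SE 0.0887), at edgeR adjusted p-values of 0.249 and 0.181. The 6 MCM genes encode equal parts of the same ring, and the fitted differences ran from 0.17 in Mcm7 to 0.64 in Mcm5. Cdc6, whose ATPase loads the ring, measured 2.74, 2.88 and 3.01 CPM in WT4, WT5 and WT6 and 3.08, 4.09 and 3.70 CPM in KO4, KO5 and KO6. Its groups did not overlap, although KO4 was only slightly above WT6, and the log2 fold change was 0.34 (SE 0.157, edgeR adjusted p = 0.231). Cdt1, the partner of CDC6 in loading, measured 5.19, 5.27 and 6.27 CPM in WT4, WT5 and WT6 and 5.96, 11.2 and 7.11 CPM in KO4, KO5 and KO6, KO5 standing well above the other mice, with a log2 fold change of 0.54 (SE 0.240, edgeR adjusted p = 0.209). Without KO5 its log2 fold change was 0.22. Cdc45, which joins the ring in the active helicase, measured 3.10, 3.35 and 3.78 CPM in WT4, WT5 and WT6 and 3.37, 4.24 and 4.05 CPM in KO4, KO5 and KO6. KO4 lay among the WT mice, and the log2 fold change was 0.19 (SE 0.156, edgeR adjusted p = 0.492).

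Genes of the sliding clamp and of deoxynucleotide supply gave estimates near 0 except for Rrm2, and none was called. Pcna, encoding the clamp that holds DNA polymerase on its template, was the member with the highest level per length of exon, 27.3 CPM per kilobase of exon (RPKM) in WT mice and 26.8 in KO mice. It measured 62.5, 62.7 and 71.5 CPM in WT4, WT5 and WT6 and 65.3, 66.2 and 61.1 CPM in KO4, KO5 and KO6, the groups overlapping, with a log2 fold change of -0.03 (SE 0.0684, edgeR adjusted p = 0.828). Tyms, for the synthase of thymidylate, measured 7.29, 7.48 and 7.79 CPM in WT4, WT5 and WT6 and 7.19, 6.67 and 8.59 CPM in KO4, KO5 and KO6. KO5 was the lowest and KO6 the highest of the 6 mice, and the log2 fold change was -0.01 (SE 0.129, edgeR adjusted p = 0.971). Ribonucleotide reductase has a large subunit encoded by Rrm1 and a small subunit, limited to dividing cells, encoded by Rrm2. Rrm1 measured 36.1, 36.2 and 39.6 CPM in WT4, WT5 and WT6 and 39.8, 45.8 and 36.8 CPM in KO4, KO5 and KO6, KO6 lying between WT5 and WT6, with a log2 fold change of 0.13 (SE 0.0898, edgeR adjusted p = 0.400). Rrm2 measured 4.19, 5.37 and 7.92 CPM in WT4, WT5 and WT6 and 7.14, 9.78 and 11.0 CPM in KO4, KO5 and KO6. Only WT6 of the WT mice overlapped with the KO mice, above KO4, and the log2 fold change was 0.67 (SE 0.260, edgeR adjusted p = 0.163). The fitted differences of Pcna and Tyms were within 1 standard error of 0, and neither kept its sign in all fits that left out 1 mouse.

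**Figure D3:**
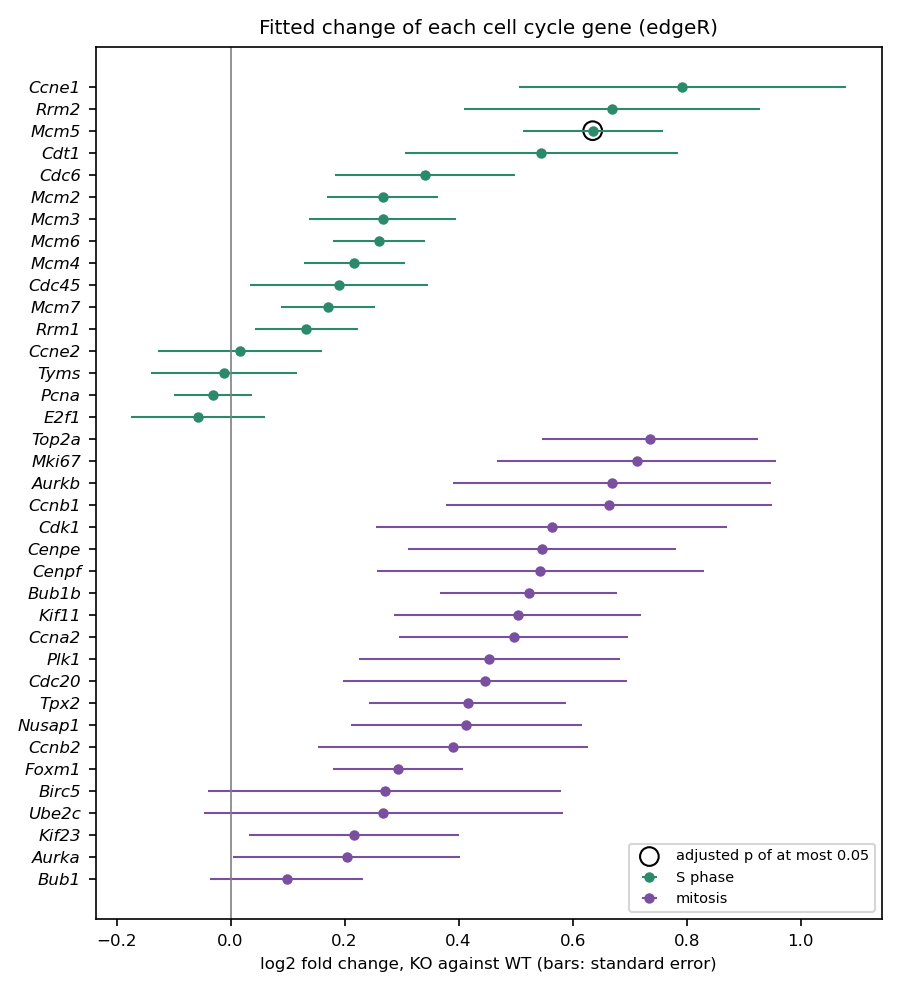
The fitted log2 fold change of KO against WT mice (horizontal axis) for each member, with S phase genes above and mitosis genes below and bars of 1 standard error. The open circle marks Mcm5, the only member with an adjusted p of at most 0.05, and the 21 mitosis genes all lie to the right of 0.

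In the mitosis members the log2 fold change was above 0 in 21 of 21 genes, between 0.10 in Bub1 and 0.74 in Top2a, and 0 were called. Foxm1, encoding the transcription factor that with MuvB drives mitosis genes, measured 5.07, 5.37 and 4.95 CPM in WT4, WT5 and WT6 and 6.11, 6.59 and 6.12 CPM in KO4, KO5 and KO6. It was the most even of the mitosis genes in WT mice, all KO values lying above all WT values, and the log2 fold change was 0.29 (SE 0.114, edgeR adjusted p = 0.163). The cyclins that it controls were more variable. Ccna2, for cyclin A2 of S phase and G2, measured 5.39, 5.61 and 8.54 CPM in WT4, WT5 and WT6 and 8.90, 10.4 and 8.30 CPM in KO4, KO5 and KO6, WT6 lying above KO6, and the log2 fold change was 0.50 (SE 0.201, edgeR adjusted p = 0.177). Ccnb1, for cyclin B1, the partner of CDK1 at entry into mitosis, measured 1.41, 2.73 and 2.98 CPM in WT4, WT5 and WT6 and 3.18, 3.73 and 4.39 CPM in KO4, KO5 and KO6. The groups did not overlap, and WT4 lay far below the rest, with a log2 fold change of 0.66 (SE 0.286, edgeR adjusted p = 0.201). Ccnb2, for cyclin B2, measured 2.66, 2.30 and 4.24 CPM in WT4, WT5 and WT6 and 4.11, 4.22 and 3.80 CPM in KO4, KO5 and KO6, WT6 being the highest of the 6 mice, with a log2 fold change of 0.39 (SE 0.237, edgeR adjusted p = 0.349). Cdk1, the kinase of mitotic entry, measured 2.25, 1.92 and 4.43 CPM in WT4, WT5 and WT6 and 3.96, 4.57 and 4.30 CPM in KO4, KO5 and KO6. WT6 was at the level of the KO mice while WT4 and WT5 were well below them, with a coefficient of variation of 47.6% in WT mice, and the log2 fold change was 0.56 (SE 0.308, edgeR adjusted p = 0.299). With 1 mouse left out the log2 fold change of Cdk1 ran from 0.35 without WT5 to 1.03 without WT6 (edgeR adjusted p = 0.0717 to 0.578 over these fits).

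The proliferation marker and the enzyme that untangles chromosomes were the mitosis members with the most counts, and so the least counting error. Top2a (ENSMUSG00000020914, chr11:98992943-99024189, minus strand), for DNA topoisomerase II alpha, measured 14.1, 15.96 and 22.7 CPM in WT4, WT5 and WT6 and 24.5, 32.6 and 31.0 CPM in KO4, KO5 and KO6. Every KO mouse was above every WT mouse, and the log2 fold change was 0.74 (SE 0.190, edgeR adjusted p = 0.0647), a fold of 1.67. Mki67 (ENSMUSG00000031004, chr7:135689784-135716361, minus strand), for the Ki-67 protein that coats mitotic chromosomes, measured 16.9, 20.9 and 31.4 CPM in WT4, WT5 and WT6 and 29.3, 44.7 and 39.4 CPM in KO4, KO5 and KO6. WT6 lay above KO4, the other KO mice were above all WT mice, and the log2 fold change was 0.71 (SE 0.244, edgeR adjusted p = 0.127), a fold of 1.64. DESeq2 with its own adjustment called both, at adjusted p-values of 0.00164 for Top2a and 0.0140 for Mki67. The promoters of both, printed above, hold more than 1 CHR match.

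The kinases of mitosis and survivin had estimates above 0, none of them called by edgeR's quasi-likelihood test. Bub1b, encoding BUBR1 of the spindle checkpoint, measured 8.01, 6.90 and 8.67 CPM in WT4, WT5 and WT6 and 9.83, 13.5 and 10.5 CPM in KO4, KO5 and KO6. Its groups did not overlap, and the log2 fold change was 0.52 (SE 0.155, edgeR adjusted p = 0.0923), a call that DESeq2 made (adjusted p = 0.0430). Bub1, the other checkpoint kinase, measured 3.70, 4.60 and 4.27 CPM in WT4, WT5 and WT6 and 4.50, 4.55 and 4.39 CPM in KO4, KO5 and KO6. All 6 mice except WT4 lay close together, and the log2 fold change was 0.10 (SE 0.135, edgeR adjusted p = 0.697), the lowest of the mitosis genes. Aurkb, for the kinase of the chromosomal passenger complex, measured 1.69, 1.92 and 3.01 CPM in WT4, WT5 and WT6 and 2.64, 4.36 and 3.51 CPM in KO4, KO5 and KO6. WT6 exceeded KO4, and the log2 fold change was 0.67 (SE 0.279, edgeR adjusted p = 0.188). Birc5, for survivin of the same complex, measured 1.77, 2.88 and 3.98 CPM in WT4, WT5 and WT6 and 2.64, 4.17 and 3.56 CPM in KO4, KO5 and KO6, with KO4 below WT5 and WT6, and the log2 fold change was 0.27 (SE 0.310, edgeR adjusted p = 0.634). Aurka, for the kinase of the spindle poles, measured 1.85, 2.16 and 2.49 CPM in WT4, WT5 and WT6 and 2.10, 2.96 and 2.37 CPM in KO4, KO5 and KO6, the groups overlapping, with a log2 fold change of 0.20 (SE 0.200, edgeR adjusted p = 0.575). Plk1, which encodes polo-like kinase 1, measured 2.25, 3.35 and 3.04 CPM in WT4, WT5 and WT6 and 2.93, 4.68 and 4.15 CPM in KO4, KO5 and KO6. KO4 lay below WT5 and WT6 here too, and the log2 fold change was 0.45 (SE 0.230, edgeR adjusted p = 0.266). In 5 of the 6 genes KO4 was the lowest KO mouse and in 6 of 6 KO5 was the highest.

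Genes of the kinetochore, spindle and cytokinesis gave estimates of 0.22 to 0.55. Cenpe, a kinetochore motor, measured 2.66, 3.16 and 4.53 CPM in WT4, WT5 and WT6 and 4.16, 5.96 and 4.99 CPM in KO4, KO5 and KO6, with a log2 fold change of 0.55 (SE 0.235, edgeR adjusted p = 0.200). Cenpf, a kinetochore protein with the lowest level per length of exon among the members (0.281 RPKM in WT mice), measured 2.86, 4.36 and 5.79 CPM in WT4, WT5 and WT6 and 7.58, 6.78 and 4.64 CPM in KO4, KO5 and KO6, with a log2 fold change of 0.54 (SE 0.287, edgeR adjusted p = 0.284). KO4 was the lowest KO mouse for Cenpe and the highest for Cenpf. Over the 6 genes of this group KO5 was the highest KO mouse in 5 and KO4 the lowest in 4. Kif11, the motor that separates the spindle poles, measured 4.99, 6.04 and 7.67 CPM in WT4, WT5 and WT6 and 6.89, 10.8 and 8.74 CPM in KO4, KO5 and KO6, and the log2 fold change was 0.50 (SE 0.216, edgeR adjusted p = 0.200). Kif23, a motor of cytokinesis, measured 5.47, 7.19 and 8.05 CPM in WT4, WT5 and WT6 and 7.14, 9.50 and 7.36 CPM in KO4, KO5 and KO6, where WT6 lay above KO4 and KO6, with a log2 fold change of 0.22 (SE 0.184, edgeR adjusted p = 0.510). Nusap1, a protein that bundles spindle microtubules, measured 3.66, 3.55 and 5.05 CPM in WT4, WT5 and WT6 and 4.79, 6.61 and 4.89 CPM in KO4, KO5 and KO6, WT6 being above KO4 and KO6 again, with a log2 fold change of 0.41 (SE 0.203, edgeR adjusted p = 0.254). Tpx2, which activates Aurora A on the spindle, measured 4.19, 4.98 and 5.89 CPM in WT4, WT5 and WT6 and 6.26, 7.76 and 6.02 CPM in KO4, KO5 and KO6. It was the only gene of this group whose groups did not overlap, KO6 lying just above WT6, and the log2 fold change was 0.42 (SE 0.173, edgeR adjusted p = 0.187).

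The anaphase-promoting complex, which ends mitosis, was represented by its activator Cdc20 and its ubiquitin-conjugating enzyme Ube2c. Cdc20 measured 3.54, 5.13 and 7.24 CPM in WT4, WT5 and WT6 and 7.87, 7.36 and 6.52 CPM in KO4, KO5 and KO6, KO6 lying below WT6, with a log2 fold change of 0.45 (SE 0.249, edgeR adjusted p = 0.310). Ube2c measured 2.13, 3.402 and 4.69 CPM in WT4, WT5 and WT6 and 3.18, 5.31 and 3.75 CPM in KO4, KO5 and KO6, WT6 lying above KO4 and KO6, with a log2 fold change of 0.27 (SE 0.315, edgeR adjusted p = 0.643). With 1 mouse left out, several mitosis estimates came close to 0. The log2 fold change ran from 0.012 to 0.57 in Ube2c, from 0.015 to 0.59 in Birc5, from 0.038 to 0.32 in Aurka, from 0.016 to 0.17 in Bub1 and from 0.064 to 0.34 in Kif23, being highest without WT6 in each of these but Bub1 and lowest without KO5 or, in Birc5 and Bub1, without WT4. Exons of Ube2c overlap those of Tnnc2 on the opposite strand over 22.8% of their length, and those of Cdc20 overlap Elovl1 over 2.84%. Mcm7, Cdc45, Ccna2, Plk1 and Nusap1 are likewise overlapped on the opposite strand, as 8 of the 37 genes are in all, so their counts are uncertain to that extent.

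Set beside each other, the 16 S phase genes were centred on a log2 fold change of 0.24 (median, range -0.06 to 0.79, 13 of 16 above 0) and the 21 mitosis genes on 0.45 (median, range 0.10 to 0.74, 21 of 21 above 0), where the median over all genes tested was 0.00295. Mitosis genes were also the more variable between WT mice, with a median coefficient of variation of 26.98% against 8.91% for S phase genes and 7.07% over all genes. In KO mice these were 17.5%, 11.4% and 8.85%. Depth differed as well, with a median of 98.5 counts per library for the mitosis genes, 327 for the S phase genes and 480.5 over all genes. No member was under 100 counts in every library, but Ccne1, Cdc6, Ccnb1, Plk1, Aurka and Aurkb passed 100 only in KO5, the deepest library. The median over S phase genes was 0.30 without WT6 and 0.16 without KO5, and that over mitosis genes 0.68 without WT6, 0.35 without KO5 and 0.32 without WT4.

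By mouse, the mean over S phase genes of log2 CPM minus the WT mean was -0.09, -0.06 and 0.16 in WT4, WT5 and WT6 and 0.18, 0.40 and 0.23 in KO4, KO5 and KO6. Over mitosis genes the means were -0.31 in WT4, -0.04 in WT5 and 0.35 in WT6, and 0.30 in KO4, 0.66 in KO5 and 0.42 in KO6. The KO means lay above all WT means for S phase, by a narrow margin between KO4 and WT6, whereas for mitosis WT6 lay above KO4. Mitosis minus S phase was -0.22 in WT4, 0.02 in WT5 and 0.19 in WT6, and 0.12 in KO4, 0.27 in KO5 and 0.20 in KO6, the value of WT6 being close to that of KO6. WT6 was the highest WT mouse in 33 of 37 genes, 15 of 16 in S phase and 18 of 21 in mitosis, and WT4 the lowest in 27. Among KO mice KO5 was the highest in 30 genes. In mitosis WT6 exceeded KO4 in 12 of 21 genes, KO6 in 10 and KO5 in 1.

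**Figure D4:**
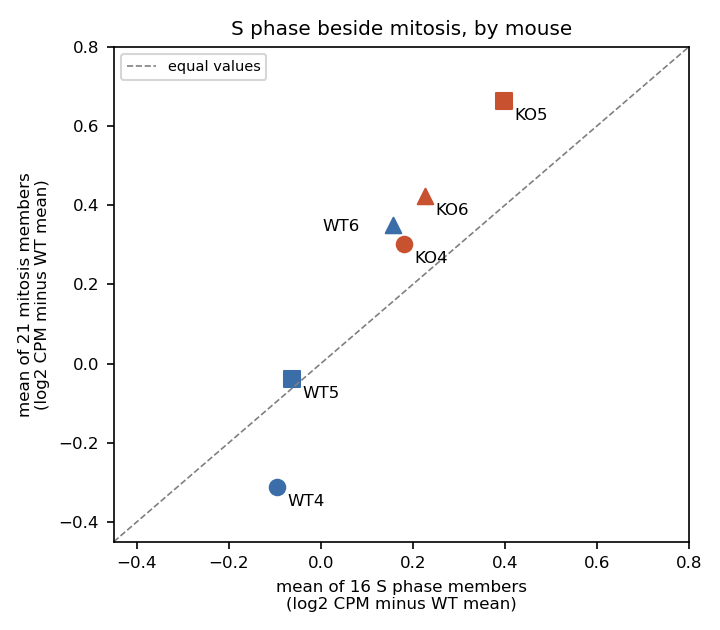
Each point is a mouse, placed by the mean over the 16 S phase members (horizontal axis) and over the 21 mitosis members (vertical axis) of log2 CPM minus the WT mean, with WT mice in blue, KO mice in red and equal values on the dashed line. WT6 (0.16 and 0.35) lies beside KO4 (0.18 and 0.30), and WT4 and KO5 are at the ends.

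Further genes of the cycle were read from lists of other members of the same machinery. Of 45 other replication genes, 41 had a log2 fold change above 0, with a median of 0.24, 1 was called higher and 0 lower, where 3.72% and 2.67% of all genes were. In 18 of the 45 all KO values lay above all WT values and in 1 below, against 17.0% and 15.6% of all genes. The called gene was Tk1 (chr11:117815526-117826092, minus strand), for the thymidine kinase of dividing cells, which measured 3.14, 3.402 and 4.08 CPM in WT4, WT5 and WT6 and 6.16, 7.78 and 5.83 CPM in KO4, KO5 and KO6. It rose in KO mice without overlap, and the log2 fold change was 0.90 (SE 0.171, edgeR adjusted p = 0.0325). Of 56 other mitosis genes, 52 were above 0, with a median of 0.45, 0 were called in either direction by edgeR's quasi-likelihood test and 19 were higher at an unadjusted p below 0.05, against 13.9% of all genes. In 23 of the 56 all KO values lay above all WT values and in 1 below. The medians of both lists equalled those of the S phase and mitosis members to the second decimal. Both lists hold genes of the same machinery in the same mice, so this is not a separate observation. edgeR's exact test called 1 of the 45 and 2 of the 56, and DESeq2 called 3 and 4, where 5.53% and 6.51% of all genes were called higher.

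The regulators of the cycle gave medians near 0. Of 6 G1 cyclins and their kinases, 1 was called lower and 0 higher, where 2.67% and 3.72% of all genes were, 3 were lower and 0 higher at an unadjusted p below 0.05, and the median was -0.10. Ccnd3 (chr17:47505051-47599691, plus strand), for cyclin D3 of G1, measured 169, 176 and 181 CPM in WT4, WT5 and WT6 and 149.6, 137 and 139 CPM in KO4, KO5 and KO6. The groups did not overlap, it fell in KO mice, and the log2 fold change was -0.30 (SE 0.0557, edgeR adjusted p = 0.0295). Of 11 CDK inhibitors and brakes, 1 was called lower and 0 higher, with 7 above 0 and a median of 0.06. At an unadjusted p below 0.05, 4 of the 11 were higher and 2 lower, against 13.9% and 11.6% of all genes, and the same counts lay without overlap above and below the WT mice. Cdkn1a (chr17:29090976-29100727, plus strand), for the CDK inhibitor p21, measured 49.8, 59.2 and 62.0 CPM in WT4, WT5 and WT6 and 33.7, 36.1 and 41.1 CPM in KO4, KO5 and KO6. Each KO mouse was below each WT mouse, it fell in KO mice, and the log2 fold change was -0.62 (SE 0.104, edgeR adjusted p = 0.0249), a fold of 0.649. Wee1, for the kinase that holds CDK1 inactive and a gene under the circadian clock, measured 24.0, 23.5 and 29.1 CPM in WT4, WT5 and WT6 and 25.6, 20.9 and 21.2 CPM in KO4, KO5 and KO6. KO4 lay above WT4 and WT5, and the log2 fold change was -0.18 (SE 0.116, edgeR adjusted p = 0.372). Of 17 genes of the RB family, the other E2Fs and the DREAM complex, 0 were called by edgeR's quasi-likelihood test, and the median was -0.03. At an unadjusted p below 0.05, 2 were higher and 4 lower. Without overlap, 4 lay above and 7 below the WT mice, against 17.0% and 15.6% of all genes. Mybl2, for B-MYB, measured 2.09, 2.54 and 2.94 CPM in WT4, WT5 and WT6 and 2.98, 3.57 and 3.31 CPM in KO4, KO5 and KO6, without overlap, and the log2 fold change was 0.38 (SE 0.177, edgeR adjusted p = 0.232). The 3 calls outside the members depended on the mice. Tk1 kept its call without KO4 or KO5 (adjusted p = 0.0422 and 0.0479) and lost it without WT4, WT5, WT6 or KO6 (0.0994, 0.142, 0.0762 and 0.0695). Ccnd3 kept it without KO4 (0.0277) and lost it without WT4, WT5, WT6, KO5 or KO6 (0.0687, 0.132, 0.102, 0.0521 and 0.0938). Cdkn1a kept it without WT4, KO4 or KO5 (0.0360, 0.0397 and 0.0379) and lost it without WT5, WT6 or KO6 (0.118, 0.0842 and 0.0534).

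**Figure D5:**
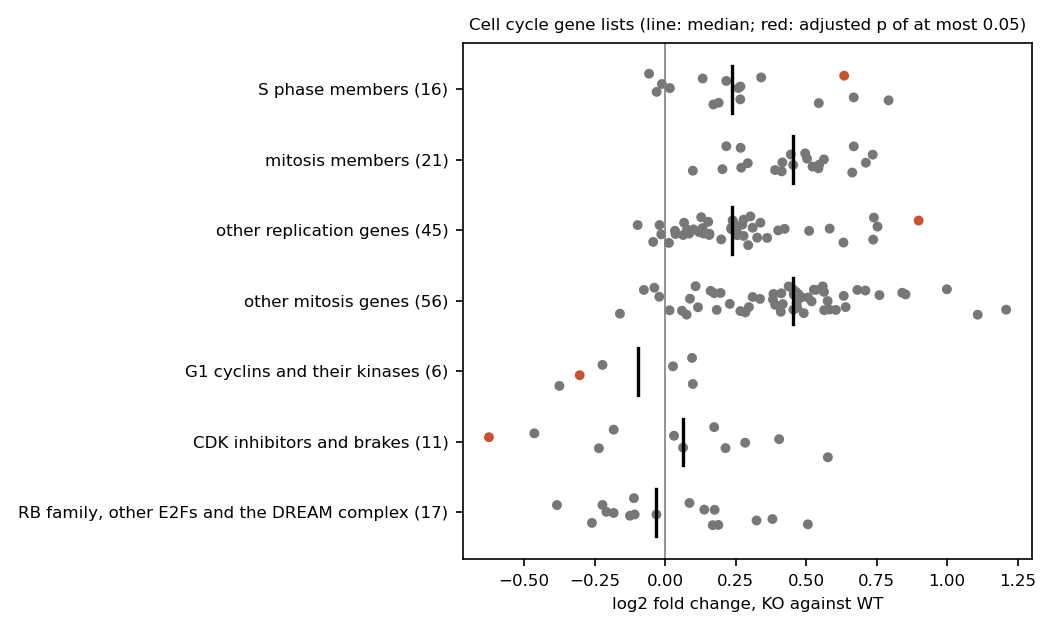
Each point is a gene, placed by its fitted log2 fold change of KO against WT mice (horizontal axis), in 7 lists with the number of genes in parentheses, a black line at the median and red for an adjusted p of at most 0.05. Replication and mitosis lists lie mostly right of 0 (medians 0.24 and 0.45, members and other genes alike), and the 3 lists of regulators lie around 0.

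Markers of cell types that can divide in the lung or enter it also differed between the mice. Over all genes 13.9% were higher and 11.6% lower at an unadjusted p below 0.05. All KO values lay above all WT values in 17.0% of genes and below them in 15.6%. The summed level of 10 B cell markers was 145, 139.9 and 152 CPM in WT4, WT5 and WT6 and 256, 1100 and 311 CPM in KO4, KO5 and KO6, all 10 genes lying above the WT mice in every KO mouse and 0 being called by edgeR's quasi-likelihood test, with 10 at an unadjusted p below 0.05. KO5, the highest in B cell markers, was also the highest KO mouse in the mean of S phase and of mitosis genes. Among WT mice the B cell sums lay close together, while the mean of mitosis genes ran from -0.31 in WT4 to 0.35 in WT6. The 9 T cell markers summed to 60.7, 52.5 and 54.9 CPM in WT mice and 60.2, 153 and 81.4 CPM in KO mice, with 6 genes free of overlap, a median log2 fold change of 0.80 and 0 called by edgeR's quasi-likelihood test, 7 being higher at an unadjusted p below 0.05. Of 12 monocyte markers 10 were called higher, where 3.72% of all genes were, and the same number lay above the WT mice in every KO mouse, with a median log2 fold change of 1.22. Cx3cr1 was among them at a log2 fold change of 1.52 (SE 0.172, edgeR adjusted p = 0.0118). The study had already listed Cx3cr1, Cd300e, Adgre4 and Ms4a6c as higher at ZT10 in these same mice. The count of called monocyte markers is therefore not independent of that list. The 12 monocyte markers summed to 1822, 1792 and 1834 CPM in WT mice and 2297, 1965 and 2223 CPM in KO mice. Most of it came from Ace, whose log2 fold change was 0.01 (SE 0.085, edgeR adjusted p = 0.945). Of 7 neutrophil markers tested, 3 were called higher (S100a8, S100a9 and Retnlg), 4 lay above the WT mice in every KO mouse, and the median was 1.01. Their sums were 82.4, 180.3 and 74.2 CPM in WT mice and 169, 137 and 211 CPM in KO mice, and WT5 was highest through Ltf, at 98.7 CPM. Of 7 plasma cell markers 0 were called by edgeR's quasi-likelihood test, 4 were higher at an unadjusted p below 0.05, 4 lay above the WT mice in every KO mouse (Jchain, Mzb1, Tnfrsf17 and Derl3), and the median was 1.10. They summed to 559, 666 and 789 CPM in WT mice and 850.3, 703 and 1196 CPM in KO mice, with Sdc1 and Xbp1, each at a log2 fold change of -0.14, adding much of the level. With 1 mouse left out, called B cell markers numbered 8 without KO4 and 8 without KO5, and 0 without WT4, WT5, WT6 or KO6. Over all genes 4.55% were called higher without KO4, 3.49% without KO5, 0.841% without WT4, 0% without WT5, 0.146% without WT6 and 0.425% without KO6. Called T cell markers numbered 4 without KO4 and 0 without any other mouse. Called monocyte markers numbered 9 without KO5, 7 without WT4 or KO6 and 0 without WT5 or WT6, and called neutrophil markers 2 without WT6 and 0 without WT4, WT5 or KO6. Of 7 germinal centre genes 5 could be tested and none was called by edgeR's quasi-likelihood test, with 0 at an unadjusted p below 0.05 and a median of 0.11. Of the thymocyte genes Rag2 had 0 counts in each library and Rag1 2 or fewer.

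Of 9 erythroid markers 5 were called lower, where 2.67% of all genes were, with a median log2 fold change of -0.85. Their sums were 2336, 2376 and 2237 CPM in WT mice and 1151, 1505 and 1166 CPM in KO mice. In 6 of them every KO mouse lay below the WT mice, against 15.6% of all genes. The calls numbered 3 without WT4 and 0 without WT5, WT6 or KO6. The 8 epithelial markers had log2 fold changes below 0 in 8 of 8 cases, with a median of -0.25. By edgeR's quasi-likelihood test 0 were called, and 4 were lower at an unadjusted p below 0.05, against 11.6% of all genes. The 8 endothelial markers had a median of -0.08, and Cldn5 was called lower (adjusted p = 0.0362), a call lost with any 1 mouse left out. Alveolar macrophage markers summed to 926, 704 and 598 CPM in WT mice and 718, 854 and 942 CPM in KO mice, with a median of 0.24 and Marco called higher (adjusted p = 0.00665), which was lost without WT5. The 8 fibroblast and mesenchyme markers had a median of -0.15, and the 5 adipocyte genes tested one of 0.12. The 8 cardiac muscle genes summed to 680.1, 1222 and 493 CPM in WT mice and 288, 179 and 1360 CPM in KO mice, with KO6 apart from the other KO mice. The 10 immediate early genes, which respond to handling, summed to 661, 766 and 1616 CPM in WT mice and 937, 589 and 755 CPM in KO mice. One of them, Nr4a1, is also in the monocyte list. WT6, the highest here, was also the highest WT mouse in most cell cycle genes. The KO mice had the opposite order, KO4 being the highest and KO5 the lowest here. In the mean of mitosis genes KO4 was the lowest KO mouse (0.30) and KO5 the highest (0.66). The part of these cell types and of handling in the cell cycle values was not tested.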

How the data were processed

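RNA of whole lungs was sequenced with a stranded mRNA kit, 1 library per mouse, for 3 WT and 3 KO mice at ZT10. According to the study's methods and the submitters' processing notes, the authors trimmed reads (Trimmomatic 0.36), aligned them to GRCm38 with STAR 2.5.3a, used Picard 2.9.0 and counted reads with HTSeq 0.6.0. The authors deposited whole read counts per Ensembl gene without normalization, and the annotation and the strand setting are not given in the sources used here. The mice's sex is not in the labels, and the study as a whole used both sexes. The counts of Xist and Ddx3y given above are those of female mice in each library.

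KO was tested against WT in R 4.3.3 by the quasi-likelihood functions of edgeR 4.0.16 (glmQLFit, glmQLFTest) on TMM-scaled libraries, without covariates. Genes were kept by filterByExpr at its defaults (minimum count 10, minimum total 15), and p-values of the 17037 kept were adjusted by Benjamini-Hochberg. A gene was called at an adjusted p of at most 0.05, and SE is the log2 fold change divided by the square root of F. CPM used TMM-scaled library sizes, with a prior count of 2 on the log2 scale, and RPKM the joint exon length in GENCODE mouse release 21 (GRCm38). Total counts of 19981428 to 46796908 per library make 3 counts equal to 0.0629 to 0.148 CPM, a floor for counting error only. Replicates are separate mice.

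Alternatives were DESeq2 1.42.0 as a test and its size factors, upper-quartile factors, TMM without immunoglobulin genes, edgeR's exact test, no filter, a filter of 10 counts in each library, the replicate number as a block, each mouse left out, and a median in place of the mean over members. Fits were tested on simulated data. The symbols of 3 pathway genes were matched by gene ID (Knl1, Sgo1 and Sgo2a). The members and lists were chosen with earlier results of these data known. All 37 members are named, with called pathway genes, Wee1, Cdkn1a and Mybl2, and a few markers, some of which are not reported here. Promoters came from RefSeq (GRCm38.p6). Tables and figures used Python 3.11.15, pandas 2.3.3, NumPy 2.4.6, SciPy 1.17.1 and Matplotlib 3.10.9.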

Additional observations from a re-analysis of the deposited data

How the results depend on the processing

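Members called higher in KO mice, 1 in the reported fit, numbered 2 without a filter on low counts, 2 with edgeR's exact test, 4 with DESeq2 and 0 with the replicate number as a block, a fit in which 0.176% of all genes were called higher. Leaving out 1 mouse gave 0 to 1, being 0 without WT4, WT5, WT6 or KO6. Pathway genes outside the members, 3 in the reported fit, numbered 5 with edgeR's exact test, 14 with DESeq2 and 1 with the replicate block (Cdkn1a). Of all genes, 5.53% were called higher by edgeR's exact test and 6.51% by DESeq2, against 3.72% in the reported fit. Without 1 mouse they numbered 0 to 9, with 9 without KO4, 1 without WT4 and 0 without WT5, WT6 or KO6. The calls over all genes moved too. Called higher were 4.55% without KO4, 3.49% without KO5, 0.841% without WT4, 0% without WT5, 0.146% without WT6 and 0.425% without KO6. The cause was not tested.

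Same-numbered mice had correlations of their deviations of -0.03, -0.15 and -0.02, so the numbers do not pair the mice. The medians of S phase genes (0.16 to 0.30 with 1 mouse left out) and of mitosis genes (0.32 to 0.68) stayed above 0 in each alternative. Of 518 alternative values for single members, 500 kept direction and side of the threshold, 5 lost and 5 gained a call, and 8 changed sign. Those 8 belonged to Ccne2 (-0.035 to 0.093 with 1 mouse left out), Pcna (-0.065 to 0.035) and Tyms (-0.12 to 0.065), and 34 members kept their direction in all 14 alternatives. Mitosis genes had standard errors (median 0.23) above those of S phase genes (median 0.13). They differed both in median counts per library (98.5 against 327) and in median coefficient of variation in WT mice (26.98% against 8.91%). In single genes the standard error was 0.244 in Mki67 and 0.114 in Foxm1, which had fewer counts. The part of each was not tested.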
